A study of Homo sapiens with 2 samples.

Results

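The peaks described here lay at 8 cardiac sarcomere genes and at NPPA, the gene of an atrial hormone, in a V5 ChIP for tagged TET1 in human cardiac progenitor cells. The 9 genes were ACTC1, TNNT2, MYH6, MYH7, MYL4, MYL7, ACTN2, TTN and NPPA. Their hg19 spans, each known to 1 kb and widened by 20 kb on each side, formed 8 regions, because MYH6 and MYH7 are neighbours and were taken as 1 region. A peak was counted where any base of it fell in a region. This gave 32 peaks out of the 46208 in the authors' list. The genes were chosen by name, with earlier results of these data known.

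The cells came from H1, an established line of human embryonic stem cells, with a V5 tag on the endogenous TET1 protein according to the design text. A monolayer was driven towards heart by switching WNT signalling on with 6 µM CHIR99021 up to day 2 and blocking it with 5 µM IWP2 between days 3 and 5, and chromatin was taken on day 7. There were 2 groups, the TET1-V5 ChIP and the input chromatin, with 1 library in each, and the genotype label of both libraries is wild type. Per the labels no V5 ChIP of untagged cells was listed, so TET1 and other sources of V5 antibody signal cannot be told apart. Read depth was unknown and no value has a replicate behind it. No RNA was measured here, so whether the cells of day 7 transcribed these genes was not tested.

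The sarcomere is the contractile unit of muscle. Thin filaments of actin carry the troponin switch, and thick filaments of myosin pull on them. Alpha-actinin crosslinks thin filaments at the Z-disc, and titin holds thick filaments in register. Cardiomyocytes switch these genes on as they leave the progenitor state, with myosin and light chain forms that differ between atrium and ventricle. TET1 oxidises methylated cytosine at CpG sites, the first step towards their demethylation, and its CXXC domain binds CpG-rich DNA.

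The promoters of 5 of the genes are printed because they span the range of CpG content in the set, from a CpG-rich to a CpG-poor start, and because they include a start without a peak. Each is the stretch of 250 bases before the RefSeq start site on GRCh38.p14, printed 5′ to 3′ on the strand of the gene. Capitals mark CpG dinucleotides. The sequences were matched to the genes by symbol and not by the position of a peak, since the peaks are on hg19. They lie at chr1:236686249-236686498 (plus strand) for ACTN2, chr15:34795550-34795799 (minus) for ACTC1, chr1:201377681-201377930 (minus) for TNNT2, chr1:11847784-11848033 (minus) for NPPA and chr2:178807424-178807673 (minus) for TTN.
ACTN2: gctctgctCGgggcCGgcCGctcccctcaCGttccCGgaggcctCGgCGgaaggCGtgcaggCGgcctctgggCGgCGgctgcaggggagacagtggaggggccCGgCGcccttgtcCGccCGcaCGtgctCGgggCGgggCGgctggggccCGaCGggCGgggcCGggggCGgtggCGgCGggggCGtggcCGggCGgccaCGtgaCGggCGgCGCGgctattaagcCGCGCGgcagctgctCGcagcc
ACTC1: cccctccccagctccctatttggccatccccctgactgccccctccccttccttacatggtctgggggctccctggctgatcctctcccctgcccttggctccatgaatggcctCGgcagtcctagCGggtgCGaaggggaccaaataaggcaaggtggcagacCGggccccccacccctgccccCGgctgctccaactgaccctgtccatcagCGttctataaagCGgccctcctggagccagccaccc
TNNT2: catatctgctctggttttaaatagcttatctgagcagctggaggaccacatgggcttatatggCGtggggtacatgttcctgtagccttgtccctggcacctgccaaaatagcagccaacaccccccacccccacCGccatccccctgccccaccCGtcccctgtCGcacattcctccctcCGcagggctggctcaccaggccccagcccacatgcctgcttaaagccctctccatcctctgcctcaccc
NPPA: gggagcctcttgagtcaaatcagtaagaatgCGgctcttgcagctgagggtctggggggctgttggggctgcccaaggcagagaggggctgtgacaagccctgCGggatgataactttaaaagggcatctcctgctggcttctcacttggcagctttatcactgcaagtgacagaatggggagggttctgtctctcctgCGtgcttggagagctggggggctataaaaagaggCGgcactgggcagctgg
TTN: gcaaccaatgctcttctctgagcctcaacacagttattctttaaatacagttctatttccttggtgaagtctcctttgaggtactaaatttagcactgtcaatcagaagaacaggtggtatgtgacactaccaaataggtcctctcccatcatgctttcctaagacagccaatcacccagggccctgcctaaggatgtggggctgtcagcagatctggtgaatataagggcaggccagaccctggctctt
The printed ACTN2 stretch holds 38 CpG dinucleotides. That of ACTC1 holds 7, that of TNNT2 5, that of NPPA 4 and that of TTN 0.

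Peaks marked the 5′ edge at most of the loci with a known direction of transcription, and TTN was the exception among them. The direction of transcription came from the RefSeq promoter table and was given there for 6 single-gene loci (ACTC1, TNNT2, MYL7, ACTN2, TTN and NPPA). A peak lay across the 5′ edge of the span at 5 of these 6, all but TTN. None of the 6 edges at the 3′ end was covered by a peak, and 2 of them, at MYL7 and TTN, had a peak within 2 kb. At MYL7, whose span is 3 kb long, this is the peak of its 5′ edge. Windows of 4 kb, which is the length of an edge with 2 kb on each side, held a peak in 9.88% of cases over all chromosomes. With 1 kb or 5 kb on each side the count of 5 of 6 could not differ. The 5 peaks lie across their edges, and the peak nearest to the TTN edge was 151060 bp away. Windows of 2 kb and 10 kb held a peak in 7.01% and 16.9% of cases. How often the 5′ ends of other genes carry a peak was not analysed here, so the count is not shown to be particular to sarcomere genes. The score behind these peaks is the authors' own value. It starts at 50 in this list, and scores of 3100 or more form a ceiling without a resolved order.

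**Figure D1:**
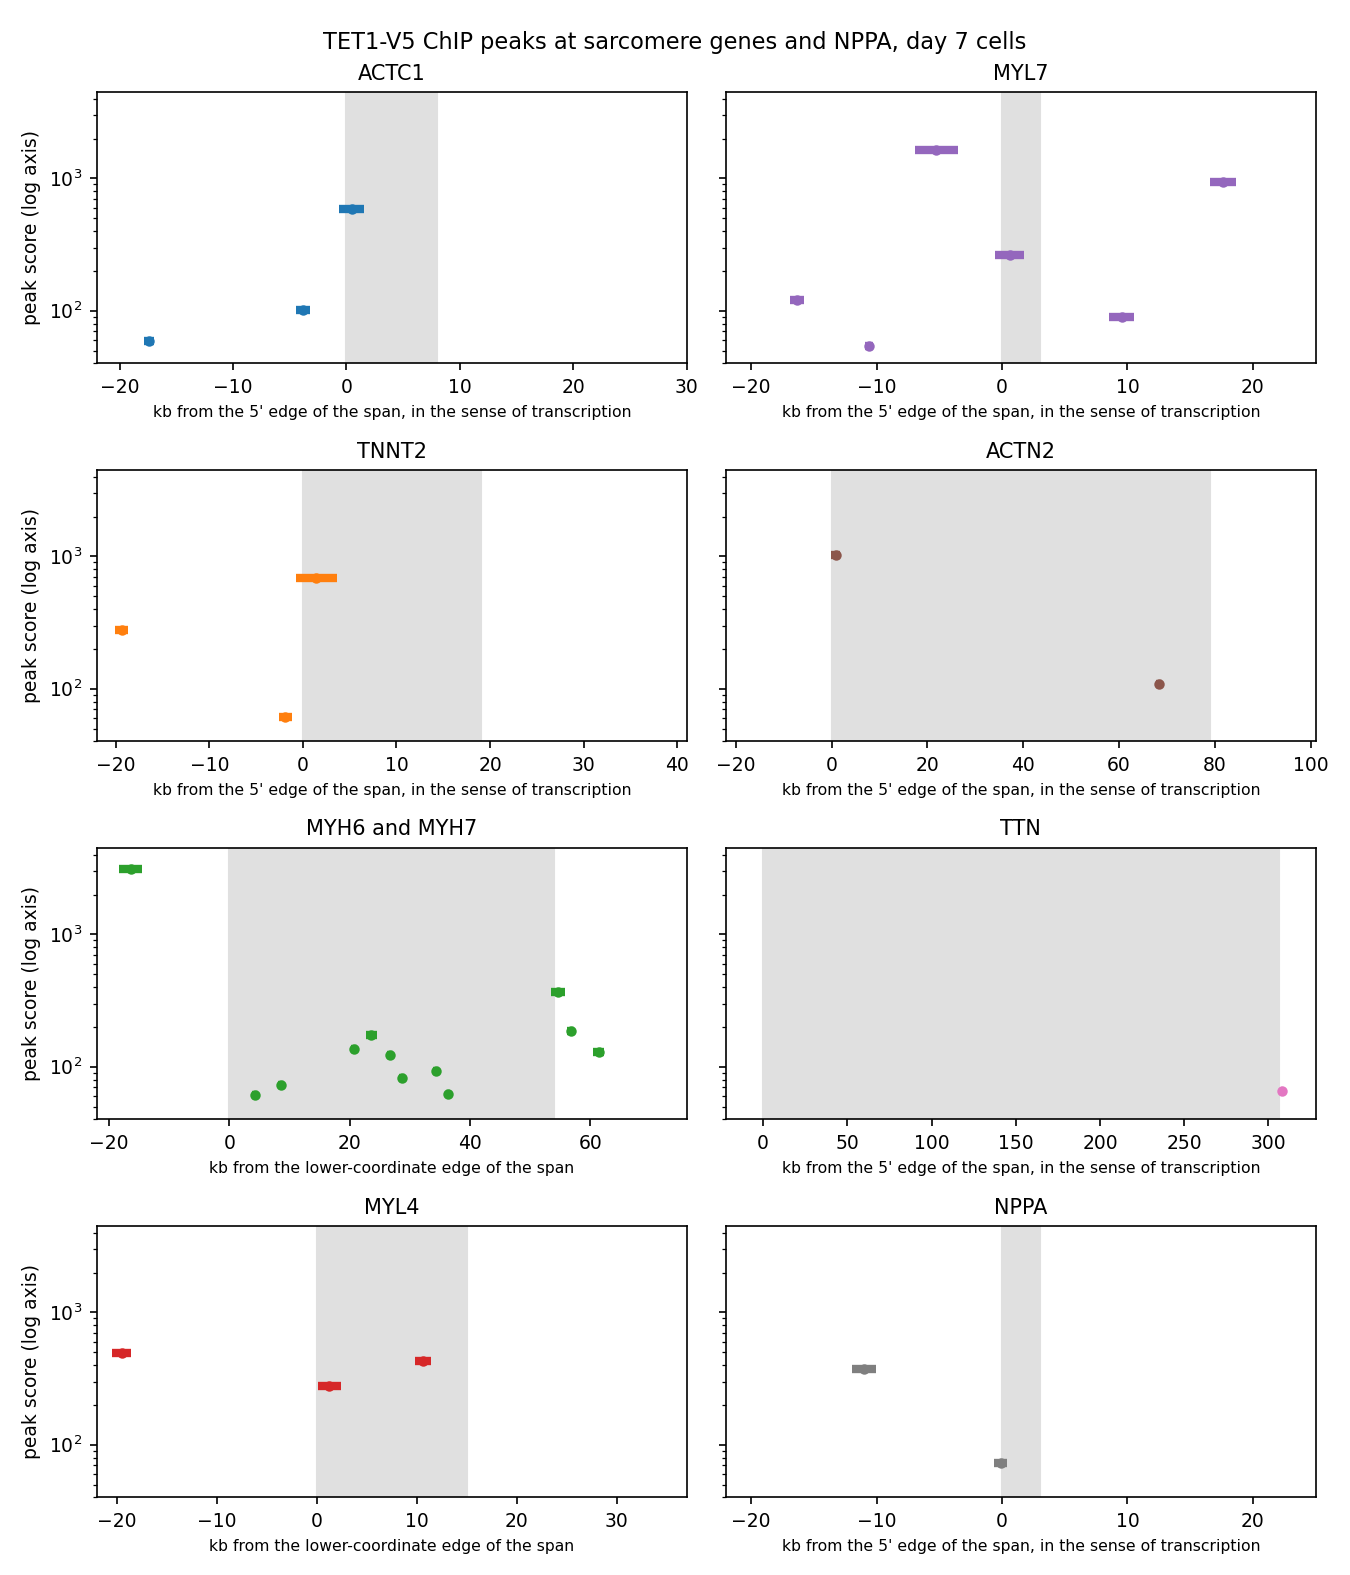
Position and score of every peak in the 8 regions: the x axis gives kb from the 5′ edge of the span in the sense of transcription (for MYL4 and for MYH6 with MYH7, from the edge with the lower coordinate), the y axis the score on a log scale, bars the width of a peak and the grey band the span. ACTC1, TNNT2, MYL7, ACTN2 and NPPA have a peak across position 0, while the TTN span of 306 kb is empty.

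ACTC1 and TNNT2 build the thin filament: ACTC1 is cardiac alpha-actin and TNNT2 is cardiac troponin T, which ties the troponin complex to tropomyosin. The ACTC1 region (chr15, span 35080 to 35088 kb) held 3 peaks. The strongest, chr15:35086438-35088649, was 2212 bp wide with a score of 584.07. It lay across the 5′ edge, with 1563 bp in the gene and 649 bp before it. The next peak before the gene, chr15:35091173-35092430, scored 101.76 and began 3172 bp from the span. The last, chr15:35104985-35105828, scored 58.78 at a distance of 16984 bp. The ACTC1 scores were thus ordered by distance from the start, highest at the gene, and nothing was called on the 3′ side of the gene within the region.

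TNNT2 carried the widest peak of the set. Its 5′ edge lay under chr1:201343373-201347722, a peak of 4350 bp with a score of 685, of which 3628 bp lay in the gene and 722 bp before it. Among all peaks with scores from 300 to 1000, 95.7% were narrower. A weak peak, chr1:201348170-201349556 (score 61.22), followed 447 bp further upstream. The third, chr1:201365703-201367040 (score 279.26), lay 18.7 kb before the gene, on the side where LAD1 is the next protein-coding gene of the RefSeq table. It reached the border of the region. The next peak outside, at 20.1 kb and not counted, scored 1480.46. A MYL4 peak (score 496.51), 18561 bp from its span, also crossed the border of its region. The ceiling peak beside MYH6 with MYH7 (score 3100) began 14498 bp from the span and the farthest ACTC1 peak (58.78) 16984 bp. The next peak left out, 21.8 kb from MYH6, scored 121.52. Across the rest of the TNNT2 span towards the 3′ end, 15372 bp, no peak was called.

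MYH6 and MYH7 encode the alpha and beta heavy chains of cardiac myosin, the motors of the thick filament, and lie one behind the other on chromosome 14. Their shared region of 94 kb held 12 peaks, the most of the 8 regions. Windows of that length held 12 or more peaks in 1.99% of cases over all chromosomes and in 1.63% on chromosome 14. The 8 peaks wholly inside the span had scores from 60.69 to 174.47 (median 87.3), against a median of 172.3 in the list, and a median width of 983 bp. Of these 8, 5 scored below 100. They formed a loose string from chr14:23854819-23855771 (score 60.69) and chr14:23859076-23860038 (72.2) to chr14:23884805-23885777 (92.53) and chr14:23887090-23887726 (61.66). The string was densest in its middle, where 4 peaks with scores of 135.04, 174.47, 122.66 and 82.07 followed each other with gaps of 1515, 1766 and 888 bp between 23871169 and 23880209. A stretch of 16702 bp without a peak separated the string from the upper edge of the span.

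At that upper edge stood chr14:23904429-23906802, 2374 bp wide with a score of 364.82, the strongest peak to touch the span. MYH7 starts at this edge by general knowledge of the locus, as no entry of the promoter table was used for it. Of the peak, 572 bp lay in the span and 1802 bp beyond. Peaks with scores of 186.11 (chr14:23907206-23908360) and 130.16 (chr14:23911499-23913348) followed at 2205 and 6498 bp from the span. The rule gives no border between the 2 genes, so whether any of these peaks lies at the start of MYH6 was not resolved. The heavy chain genes are alike in sequence, and in the sources used here the treatment of reads that match both is not given. The only peak of the set at the ceiling, chr14:23832735-23836502 (3768 bp, score 3100), lay 14.5 kb outside the span, on the side where CMTM5 is the next protein-coding gene. It was not assigned to a gene.

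MYL4 and MYL7 are the essential and the regulatory myosin light chains of the atrium, which are also made in the early heart tube. The MYL4 region (chr17, span 45286 to 45301 kb) had 3 peaks, all with scores of 278.84 or more. Just inside the lower edge, 116 bp from it, began chr17:45286117-45288373 (2257 bp, score 278.84). By general knowledge this is the end where MYL4 transcription starts in the span. A second peak, chr17:45295846-45297447 (1602 bp, score 428.75), lay inside the span, and here the peak in the gene body scored above the peak at the edge. The third, chr17:45265464-45267439 (score 496.51), lay 18561 bp outside, on the side of CDC27. The RefSeq table gives MYL4 a longer gene than the span used here, so further starts outside the span are possible.

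MYL7 is a short gene in a neighbourhood crowded with peaks. Its region of 43 kb held 6 peaks, a number reached by 2.66% of windows of that length over all chromosomes and by 2.83% on chromosome 7. The span of 3 kb was covered to 57.8% by chr7:44179267-44181539 (2273 bp, score 263.41), with 1734 bp in the gene and 539 bp before its start. The strongest peak of the region was not the one at the gene. It lay before the MYL7 start and was 3441 bp wide, with a score of 1650.99. The other peaks on that side scored 54.4 and 120.1. Behind the gene, on the side of POLD2, lay chr7:44170458-44172466 (score 89.14) and chr7:44162344-44164446 (score 942.93). The first of these was 2009 bp wide, and 98.8% of peaks with scores from 50 to 100 were narrower.

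ACTN2, the alpha-actinin that crosslinks actin at the Z-disc, had the highest score of any peak at a 5′ edge in the set. The peak chr1:236848961-236850859 scored 1025.74, above 81.7% of the list. It began 40 bp before the edge and ran 1859 bp into the gene. Its width was 1899 bp, and 6.93% of peaks with scores from 1000 to 3100 were narrower. Its score is near the lower border of that class, and stronger peaks are wider in this list. Peaks in a finer score class centred at 930 had a median width of 2484 bp and a 5th percentile of 1617 bp. At its own score the peak was thus below the median width but not extreme. A single further peak, chr1:236916705-236918046 (1342 bp, score 108.65), lay in the body of the gene after 65845 bp without a peak and 9954 bp from the 3′ edge. The region of 119 kb thus held 2 peaks, and 39.7% of windows of that length over all chromosomes held as many.

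TTN, which encodes the giant spring protein titin, had no peak in its span of 306 kb. Windows of 306 kb without a peak were 12.7% of all such windows (997 of 7835) and 13.3% of those on chromosome 2 (85 of 639), where the median window held 3 peaks. The absence is therefore not rare for a stretch of this length. The only peak of the region, chr2:179387443-179388564 (1122 bp, score 65), lay 1436 bp past the 3′ edge. The next peak on the 5′ side, chr2:179847061-179848001 (score 50.73), was 151 kb beyond the span. Between these 2 peaks lay 458 kb without a call, a length reached by 2.29% of the 46183 intervals between neighbouring peaks, whose median was 13.2 kb. An interval around an empty span of 306 kb is at least that long. The share of intervals therefore does not tell how often a locus falls in such a gap. Both bordering peaks were close to the lowest score that the list holds. The RefSeq table gives TTN a gene 24565 bp shorter than this span, so the start of the gene need not be at the span's edge. For ACTC1 the table's gene is 2680 bp shorter than the span, and for TNNT2, MYL7, ACTN2 and NPPA it is 333 to 925 bp shorter, so their edges too are uncertain to that extent. Any start within the span falls in the empty interval. Without read depth, binding below the authors' threshold cannot be told apart from no binding.

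NPPA encodes atrial natriuretic peptide, a hormone of the atrial myocardium that is not part of the sarcomere. The 5′ edge of its 3 kb span lay under chr1:11907594-11908606, 1013 bp wide with a score of 73.16. This was the weakest of the 5 peaks across a 5′ edge, and 19.8% of the list scored lower. A stronger peak, chr1:11918076-11919989 (1914 bp, score 374.01), lay 10075 bp before the gene, on the side where NPPB, the gene of the related B-type peptide, comes next. No peak was called behind NPPA within the region. Windows of 43 kb held 2 or more peaks in 17.8% of cases.

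The 5 peaks across a 5′ edge thus ranked ACTN2 (1025.74), TNNT2 (685), ACTC1 (584.07), MYL7 (263.41) and NPPA (73.16) by score, and TTN had none. Without replicates it is unknown which neighbours in this order differ beyond error. In 4 of the 5 (ACTN2, TNNT2, ACTC1 and MYL7) more bases lay in the gene than before it, and NPPA, with 407 bp in and 606 bp before, was the exception. As the edges are known to 1 kb, a shift of that size would change this for all but TNNT2.

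The promoter sequences gave a measure that the choice of genes did not use. RefSeq entries were found for 7 of the 9 genes, and MYH7 and MYL4 were the others. Over 300 bases, from 250 before to 50 after the start site, ACTN2 held 45 CpG dinucleotides, more than 96.6% of the 27305 promoters in the table. ACTC1 held 16, TNNT2 8, NPPA 5, MYH6 4, and MYL7 and TTN 3 each. The median of the table was 13, so 5 of the 7 lay below it. The ratio of observed to expected CpG was 0.948 for ACTN2 and 0.487 for ACTC1, and ran from 0.125 (MYL7) to 0.317 (TNNT2) in the others. The CpG-richest promoter of the set thus belonged to the gene with the highest 5′ score. Below it the order was not kept: TNNT2 scored above ACTC1 with fewer CpG dinucleotides, and MYL7 above NPPA. MYL7 and TTN had the same CpG number, and a peak was called at the start of MYL7 alone. With 6 genes and 1 library this is a description and was not tested.

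**Figure D2:**
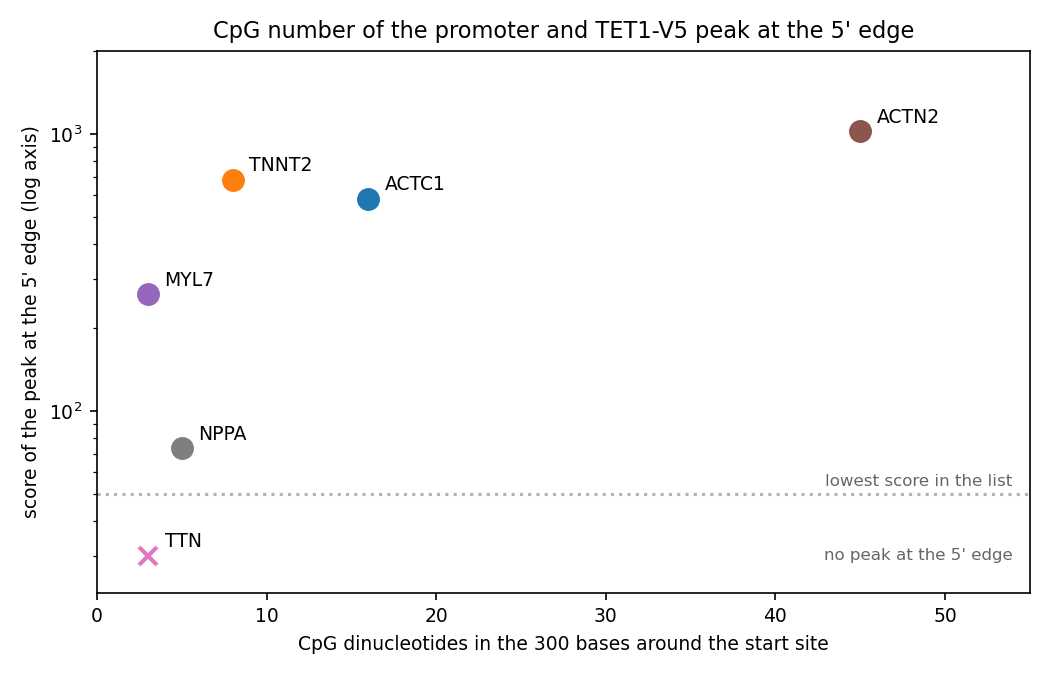
CpG dinucleotides in the 300 bases around the RefSeq start site (x axis, count) against the score of the peak across the 5′ edge (y axis, log scale) for the 6 loci with a known direction; the cross below the dotted line marks TTN, without a peak. ACTN2 stands apart with 45 CpG dinucleotides and a score of 1025.74, and the other genes with 3 to 16 range from no peak to 685.

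A second list of genes gives the range of CpG content among related starts. Of 18 further genes of the contractile apparatus and its peptide hormones, 10 were matched, and their promoters held from 2 (MYOZ2) to 39 (TPM1 and MYL3) CpG dinucleotides with a median of 9, against 5 over the members. Their peaks were not analysed here, since their hg19 positions were not used. Short motifs, among them sites of heart transcription factors and the TATA box (TATAAA), were searched on both strands of the 300 bases. GATA was present in 4 of the 7 members (TNNT2, MYH6, MYL7 and NPPA) and in 50.6% of all promoters. CANNTG, the E-box, was in 6 of 7 (not in MYH6) and in 69% of all promoters. TATAAA was in MYH6, ACTC1 and NPPA, against 12% of all. The CArG box, the site of serum response factor, was in ACTC1 and MYL7 against 1.29% of all, and the MEF2 site in TTN against 3.09%. Of the 10 matched genes of the second list, 7 held CANNTG, 6 GATA and 3 the CArG box. TATAAA and the MEF2 site were in 2 of these 10 each. A GATA match overlapped the TATAAA match in MYH6 and a CANNTG match in MYL7. These are matches of letters and are not shown to be bound.

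The 32 peaks ranged over all score classes of the list. Scores from 50 to 100 made up 11 peaks or 34.4% (95% Wilson interval 20.4% to 51.7%), against 32.9% of the list. Scores from 100 to 300 made up another 11, against 29.2% of the list. From 300 to 1000 there were 7 peaks, or 21.9% (11% to 38.8%) against 19.2%. Only 2 lay from 1000 to 3100 (6.25%, 1.73% to 20.1%, against 13.9%) and 1 at the ceiling (3.12%, 0.554% to 15.7%, against 4.69%). All of these intervals hold the share of the list, and they cover counting error only. The median score was 132.6 against 172.3 in the list, and the median width 1364.5 bp against 1531 bp. No member peak reached 5 kb. Of the 3 peaks scoring 1000 or more, only that of ACTN2 touched a span. The other 2 lay outside the spans of MYL7 and of MYH6 with MYH7.

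**Figure D3:**
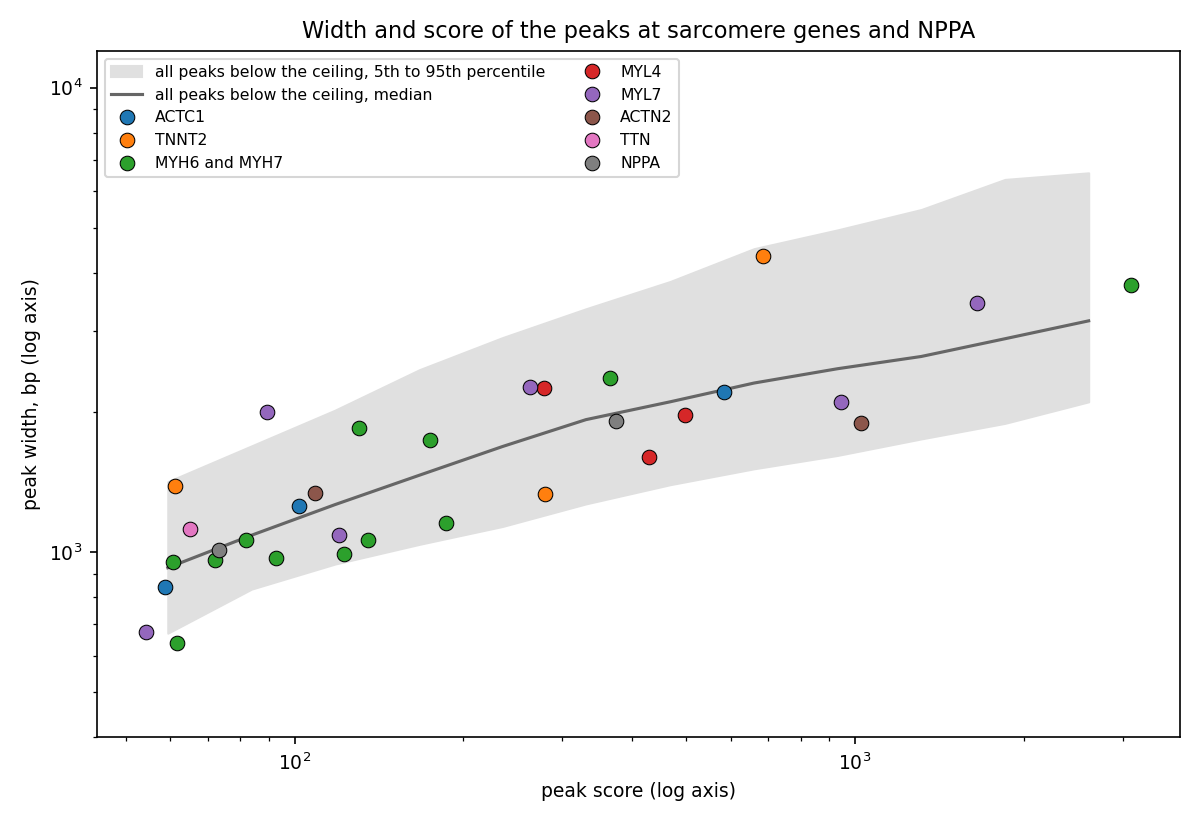
Width (y axis, bp, log scale) and score (x axis, log scale) of the 32 peaks, coloured by locus, over the median and the 5th to 95th percentile of all peaks below the ceiling in 12 score classes. The TNNT2 peak of 4350 bp lies near the upper border of the band and the ACTN2 peak of 1899 bp in its lower part.

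Peak density differed widely between the regions. Over the 807 kb of all 8 regions there were 39.7 peaks per Mb (exact 95% Poisson interval 27.1 to 56), 2.09 times the 19 per Mb of the whole list (1.43 to 2.95). Peaks covered 6.58% of the regions and 3.69% of the genome stretches compared. This mean joined unlike parts. Without TTN the ratio was 3.55 (2.41 to 5.04), and without MYH6 and MYH7 it was 1.48 (0.904 to 2.29), an interval that holds 1. Against the rate of its own chromosome, MYL7 had 7.91 times as many peaks per Mb (2.9 to 17.2), MYH6 with MYH7 6.31 times (3.26 to 11), ACTC1 3.2 (0.66 to 9.36), TNNT2 2.37 (0.489 to 6.92), NPPA 2.17 (0.262 to 7.83), MYL4 1.27 (0.263 to 3.73), ACTN2 0.783 (0.0948 to 2.83) and TTN 0.191 (0.00484 to 1.07). All intervals on these ratios hold for counting error alone and for independent peaks. Peaks cluster along the chromosomes, so these intervals are too narrow. All 8 regions held at least 1 peak. Windows of the same length over all chromosomes did so in 40.1% (43 kb, as MYL7 and NPPA), 42.7% (ACTC1), 45.8% (MYL4), 47.5% (TNNT2), 59.3% (MYH6 with MYH7), 65.5% (ACTN2) and 90.2% (TTN). The 3 peaks at each of TNNT2, ACTC1 and MYL4 were reached by 14.1%, 11.3% and 13% of such windows, and by 17.4%, 11.6% and 35.8% of those on their own chromosome. For ACTN2 and NPPA the share on chromosome 1 was 47.1% and 21.1%. The windows include stretches without genes, so the ratio is not a comparison with other genes.

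**Figure D4:**
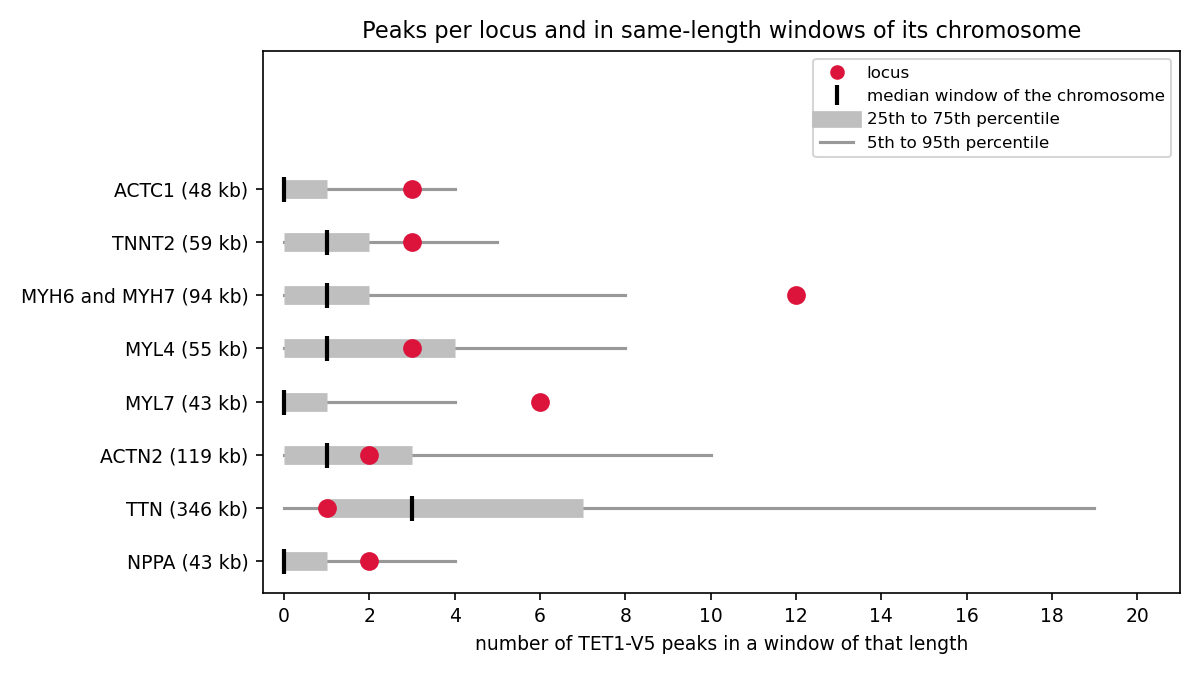
Number of peaks in each widened span (red points; x axis, count; the length of the region in kb beside its name) with the 5th, 25th, 50th, 75th and 95th percentile of back-to-back windows of the same length on the same chromosome. MYH6 with MYH7 (12 peaks) and MYL7 (6 peaks) lie above the 95th percentile, and TTN (1 peak) lies below the median of 3.

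Inside the spans, 15 of the 32 peaks had their midpoint, and 17 peaks touched a span. Of these 17, 9 belonged to MYH6 with MYH7. The other 8 were shared by TNNT2 (1), ACTC1 (1), MYL4 (2), MYL7 (1), ACTN2 (2) and NPPA (1). Peaks covered 25.7% of the MYL4 span, 19.5% of ACTC1, 19.1% of TNNT2, 16.6% of MYH6 with MYH7, 13.6% of NPPA and 4.05% of ACTN2. Within 100 kb of each span the strongest peak lay outside the gene at all 8 loci, at 14.5 kb (MYH6 with MYH7) to 99.6 kb (MYL4). The flanks searched, 100 kb on each side, were together longer than each span but that of TTN, so nothing is read from this position. The score of that peak was 3100 for MYH6 with MYH7, 599.41 for MYL4, 1771.92 for MYL7, 2497.55 for TNNT2, 2221.33 for NPPA and 1700.1 for TTN. For ACTC1 it was 1080.88 and for ACTN2 1482.38, above the score at the start of each gene.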

How the data were processed

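The data were 1 V5 ChIP library and 1 input library. The submitters' processing notes name BWA 0.7.17 as the aligner and hg19 as the build. The file deposited by the authors lists peaks in 5 columns, and its peak names point to MACS; in the sources used here its version and settings are not given. The score is the authors' own value per peak; its scale is not stated, so it only ranks peaks within the list. Gene spans, to 1 kb, came with the choice of genes, and the members and lists were chosen with earlier results of these data known. All 9 genes are named; every peak is given, with its score, and with its position except inside the denser part of the MYH6 and MYH7 string and before MYL7. A gene next to MYL7 is not reported here. Density was taken over the stretch from first to last peak of each of 24 chromosomes without peak-free intervals over 1 Mb, which were also cut into back-to-back windows. Window counts, density and merging were tested on simulated peaks. Promoters and neighbours came from RefSeq tables of GRCh38.p14, by symbol; for genes with several starts the most upstream was used. No p-value is given, since each group has 1 library. Positions count from 1. Python 3.11.15, pandas 2.3.3, numpy 2.4.6, scipy 1.17.1 and matplotlib 3.10.9 were used.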

Additional observations from a re-analysis of the deposited data

How the results depend on the processing

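For 16 results, 107 values were recomputed under another setting: 71 lay within 1.5 times the reported value, 36 moved further and 0 turned direction. Most of these values are counts, shares or widths, which have no direction to turn, so the 0 says little. The 32 peaks became 17 without widening, 56 with 50 kb, 15 in the upper 50% by score, 5 in the top 25% and 20 without MYH6 and MYH7. In the top 25% by score, 4 loci kept a peak, 2 of the 6 known 5′ edges did (TNNT2 and ACTN2), and the density ratio was 1.31. With peaks of all scores but without TTN, the density ratio was 3.55. Thresholds and widening change counts by construction, and the count of 5′ edges could not differ with 1 kb or 5 kb on each side. Leaving out a locus was chosen after seeing the data. The tied ceiling, the 1 kb precision of the spans and the unknown read depth limit all values. No paired analysis was possible because ChIP and input have 1 library each.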
